A study of Mus musculus with 4 samples.

Results

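The genes described are the cytosolic heat shock genes, a set of 10 that encode the main chaperones of the cytosol and the factor that controls them. They are the small heat shock protein gene Hspb1, the Hsp70 genes Hspa1a, Hspa1b and Hspa8, the Hsp110 gene Hsph1, the Hsp90 genes Hsp90aa1 and Hsp90ab1, the J-domain genes Dnajb1 and Dnaja1, and the transcription factor gene Hsf1. Members were the probe sets whose gene symbol in the platform annotation was one of these. They came to 22 probe sets for 8 of the 10 genes, out of 45037 probe sets and 18193 genes in all. No probe set had Hsp90ab1 or Hsf1 as its single symbol. Probe sets with several symbols (932) were not assigned to a gene, so those 2 genes were not analysed here. Expression was measured on short-oligonucleotide arrays, in gut epithelium collected by laser capture from frozen tissue. The 4 groups were ileum of germ-free C57/BL6 mice, which carry no microbes, ileum of control (wild type) C57/Bl6 mice, proximal colon of germ-free mice and proximal colon of wild type mice. Every group has a single array, whose RNA was a pool from 4 mice with about 4000 cells taken per mouse. With no replicate the differences have no test, and precision is limited by how few arrays there are. The labels give no age or sex, and mention hematoxylin only for the germ-free captures, so staining and germ-free state cannot be told apart.

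Heat shock proteins bind unfolded proteins and keep them from clumping until they refold or are degraded. Under heat or other stress that unfolds proteins, the factor encoded by Hsf1 binds repeated GAA units called heat shock elements in the promoters of such genes. Some members, among them Hspa1a, Hspa1b and Hspb1, are strongly inducible in that way, while Hspa8 and Hsp90ab1 are made at high level in unstressed cells. In intestinal epithelium the inducible Hsp70 and the mouse Hspb1 protein have long been studied as cytoprotective proteins whose amount responds to luminal bacteria and their products.

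All 9 epithelial markers looked at (among them Epcam, Cdh1, Vil1 and Krt8) were above the floor on every array. The floor is an intensity of 62.4, the pooled median of all arrays, to which lower values were set before a difference was taken. Values are intensities normalized to a common distribution, and a log2 difference of 1 is 2-fold. Some array controls moved with the groups. For Gapdh the ratio of the 5' to the 3' control signal, a sign of RNA length, differed between germ-free and wild type arrays by -1.10 log2 in ileum and -0.48 in colon. That of Actb differed by -1.20 and -0.12, and the median of the 18S ribosomal RNA controls by -0.93 and -1.23. Between the wild type arrays the Gapdh control was higher in ileum than in colon by 0.64 and Actb by 1.46. The part of these shifts in the results below was not tested. The SD between probe sets was taken over 2217 genes whose second probe set was bright. It is the SD of the gap between the log2 differences of a gene's 2 brightest probe sets, divided by the square root of 2. For germ-free against wild type it was 0.20 log2 in ileum and 0.29 in colon. For ileum against colon it was 0.31 in germ-free and 0.29 in wild type mice. It measures agreement between probes within a pair of arrays and says nothing of the spread between mice.

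Of the 22 probe sets, 19 were above the floor on all arrays, 1 (the dimmer probe set of Hsph1) on some, and 2 on none. Each of the 8 genes had at least 1 probe set above the floor everywhere. The genes split by pattern. Hspb1 was low on 1 array alone, that of germ-free colon. Hspa1a and Hspa1b were lower in ileum than in colon in both states, and Dnaja1 was higher in ileum. Hspa8, Hsph1, Hsp90aa1 and Dnajb1 differed by less than 1.5-fold between all compared arrays on their brightest probe set. Levels of different probe sets are not set against each other, since each has its own affinity.

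**Figure D1:**
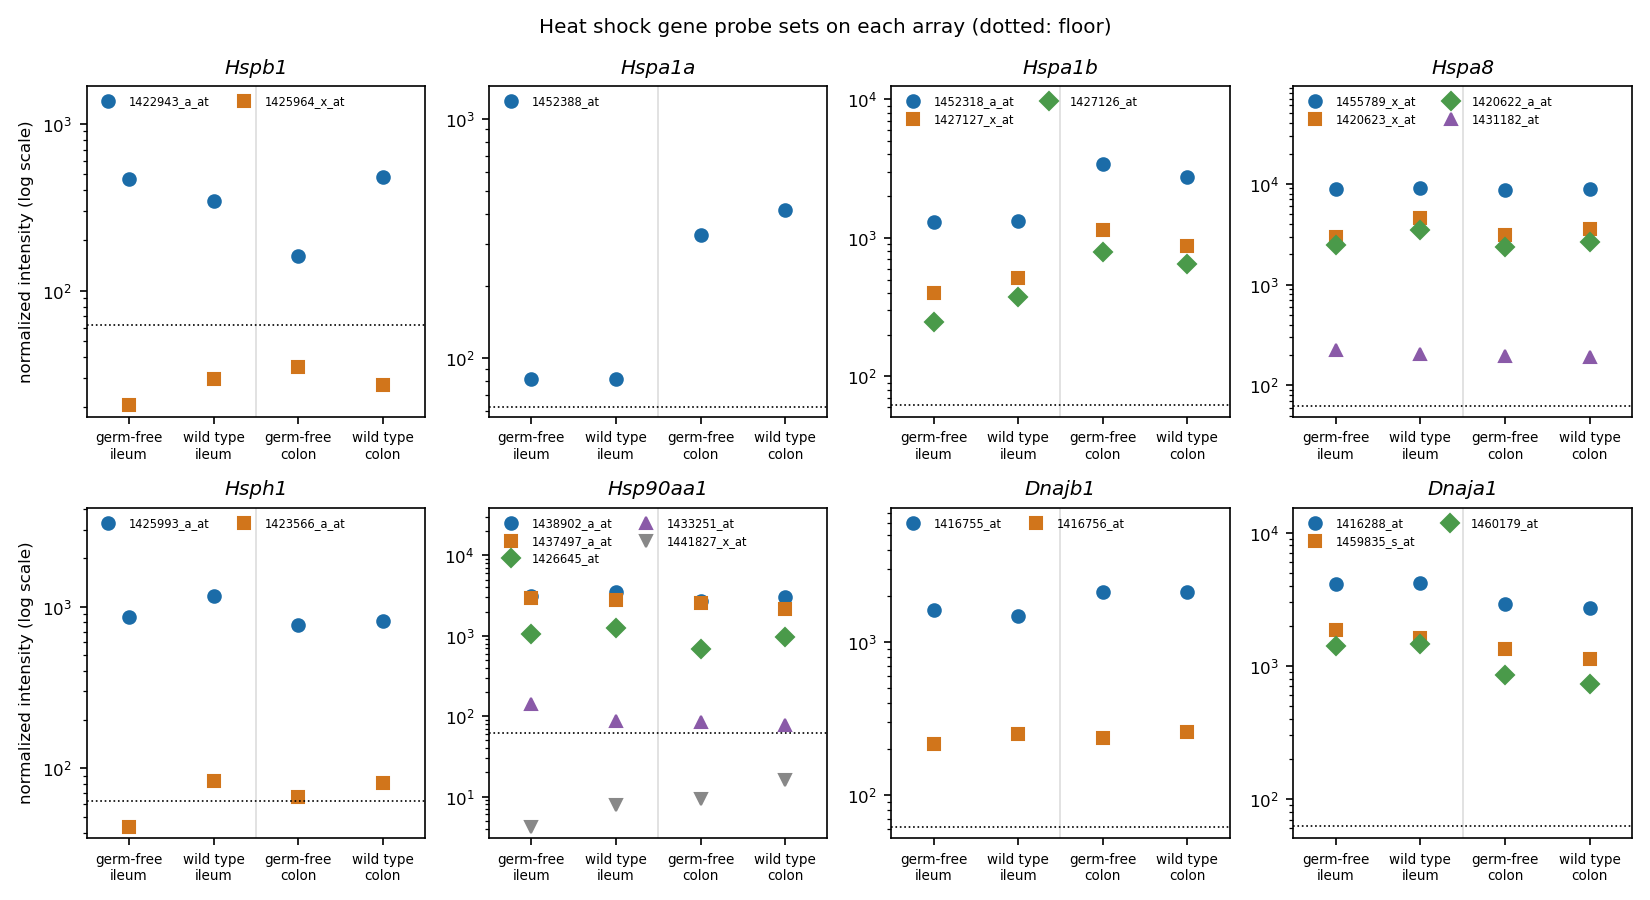
Normalized intensity (log axis) of every probe set of the 8 heat shock genes on each of the 4 arrays, with 1 point per probe set and array and a dotted line at the floor of 62.4. The brightest Hspb1 probe set is low in germ-free colon alone (161), and the Hspa1a and Hspa1b probe sets are lower on both ileum arrays than on both colon arrays.

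Hspb1 encodes the small heat shock protein called Hsp25 in the mouse, which holds unfolding proteins without using ATP. Its brightest probe set (1422943_a_at) read 469 in germ-free ileum, 343 in wild type ileum, 161 in germ-free colon and 480.0 in wild type colon. The germ-free colon array was thus the low one, and the other three lay within 1.40-fold of each other. In colon Hspb1 was 2.99-fold lower in germ-free than in wild type mice (a log2 difference of -1.58), which is larger than the SD between probe sets. That SD was taken over genes whose second probe set had a mean intensity above 259, while the germ-free colon reading was 161. It may be larger at such lower intensities. In ileum Hspb1 was 1.37-fold higher on the germ-free array (0.45). The colon difference minus the ileum difference was -2.03. Germ-free ileum was 2.92-fold higher than germ-free colon, while wild type ileum was 1.40-fold lower than wild type colon. The other probe set of Hspb1 lay below the floor on all arrays, at 20.5, 29.6, 34.7 and 27.2 in the same order, so the pattern rests on 1 probe set. It can match several transcripts by its name, and no second probe set checks it.

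The scaling between arrays left the direction of the Hspb1 differences as it was. The colon difference of Hspb1 was -1.36 as deposited and -1.62 with median scaling, and its ileum difference was 0.41 and 0.44. Averaged with its dim probe set, Hspb1 differed by -0.61 in colon and -0.04 in ileum. In captured tissue, fewer cells of a type and less RNA per cell cannot be told apart.

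Markers of several cell types differed between the same 2 colon arrays. Hspb1 is also a muscle gene. Of the 14 fibroblast and smooth muscle markers 7 were above the floor in germ-free colon and 8 in wild type colon, with summed intensities of 10135 in germ-free and 8817 in wild type colon. Mylk alone read 6400 in germ-free and 4353 in wild type colon, and the other 13 summed to 3735 and 4464, so the sum turns with that 1 probe set. Tpm2, a muscle tropomyosin gene, was 3.51-fold lower in germ-free colon, where Hspb1 was also lower. It was 3.45-fold lower in germ-free ileum too, where Hspb1 was higher by 0.45. In colon Acta2 differed by 0.03, and Tagln, Des, Myh11, Actg2, Cnn1 and Dcn were below the floor on both arrays. Vim was higher in germ-free colon by 0.38. Lower there were Col1a1 (-0.40), Col1a2 (-0.53), Col3a1 (-0.51) and Lum, by at least 0.04. Of the 8 markers measured in colon, 3 were thus higher and 5 lower on the germ-free array. In ileum 7 of the 14 were above it on the germ-free array and 12 on the wild type array, with sums of 10806 and 14342.

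Among the 6 colonocyte markers, which summed to 29398 in germ-free and 35095 in wild type colon, Aqp8 was 7.14-fold lower in germ-free colon and Slc37a2 at least 5.04-fold lower. The other four lay between -0.46 and 0.36 log2. The 7 ileal enterocyte markers summed to 21283 in germ-free and 14399 in wild type colon. Fabp6 was higher in germ-free colon by 2.97 log2, Apoa1 by at least 1.97 and Slc10a2 by 0.70. Fabp2 differed by 0.13, Apoa4 was lower by at least 0.32, and Lct and Mme were below the floor on both. Of the plasma cell genes Igha was 9.19-fold and Jchain 7.87-fold lower in germ-free colon, while Mzb1 differed by -0.07. The 6 plasma and B cell markers summed to 918 in germ-free and 6419 in wild type colon. Cd79a, Cd79b and Ms4a1 were below the floor on both colon arrays. The 8 intraepithelial and T lymphocyte markers summed to 541 in germ-free and 994 in wild type colon. Of these Cd8a was 2.91-fold lower, Gzma was at least 2.46-fold lower and the defining Cd3d, Cd3e and Cd3g were below the floor on both. Of 5 measured endothelial and pericyte markers 3 were at least 1.5-fold lower (Kdr, -1.49, Rgs5, -0.95, and Tek, -0.73) and Pdgfrb was higher by 1.23. Of 5 measured myeloid markers Adgre1 differed by -1.10 and Cd14 by 0.98. These 2 lists summed to 1015 and 2243 in germ-free colon, against 1356 and 2390 in wild type colon. The part of these cell types in the Hspb1 difference was not tested.

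Hspa1a and Hspa1b encode the inducible Hsp70, an ATP-driven chaperone made in quantity under stress. They are neighbours on chromosome 17, with 0 protein-coding genes between them, and are near-identical copies, so a probe set named for one may read both. In the RefSeq promoter windows (250 bases before to 50 after the transcript start, build GRCm38.p6) their 250 upstream bases matched at 247 positions. They are shown with those of Hspb1 and Dnaja1, because these genes carry the pattern by region or state and all 4 hold heat shock element letters. Hsph1, which differed by less than 1.5-fold on its brightest probe set, is not shown, though it holds 3 pairs of such letters in each window. The choice therefore does not tie the letters to the pattern. Capitals mark GAANNTTC, 2 GAA units head to head. The windows lie at chr5:135887669-135887918 (plus strand), chr17:34972157-34972406 and chr17:34959239-34959488 (both minus strand) and chr4:40722218-40722467 (plus strand, the first of 3 annotated starts), each written 5' to 3' along the gene.
Hspb1: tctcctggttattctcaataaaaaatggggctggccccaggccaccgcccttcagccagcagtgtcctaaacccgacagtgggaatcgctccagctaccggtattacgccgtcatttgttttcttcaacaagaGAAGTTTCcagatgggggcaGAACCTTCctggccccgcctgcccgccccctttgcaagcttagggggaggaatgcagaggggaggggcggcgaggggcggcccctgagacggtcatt
Hspa1a: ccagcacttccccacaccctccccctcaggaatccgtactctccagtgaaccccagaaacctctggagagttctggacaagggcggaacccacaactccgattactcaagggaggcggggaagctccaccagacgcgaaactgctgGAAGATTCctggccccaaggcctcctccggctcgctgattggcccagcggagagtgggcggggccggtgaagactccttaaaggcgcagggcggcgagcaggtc
Hspa1b: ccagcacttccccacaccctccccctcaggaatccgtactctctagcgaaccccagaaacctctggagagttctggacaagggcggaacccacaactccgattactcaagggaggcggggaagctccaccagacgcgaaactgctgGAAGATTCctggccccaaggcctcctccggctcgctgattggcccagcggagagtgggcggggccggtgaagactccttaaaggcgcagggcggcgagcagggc
Dnaja1: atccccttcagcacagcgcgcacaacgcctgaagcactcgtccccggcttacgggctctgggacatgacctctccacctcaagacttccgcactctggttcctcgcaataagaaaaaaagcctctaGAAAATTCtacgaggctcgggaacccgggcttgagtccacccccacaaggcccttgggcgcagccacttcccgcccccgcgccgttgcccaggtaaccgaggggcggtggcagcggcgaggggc

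Hspa1a and Hspa1b each held 1 such pair, starting 104 bases before the transcript start. Hspb1 held 2, starting at 117 and 97 bases before it. Dnaja1 held 1, at 124 bases before its first annotated start, and 0 in the windows of its later starts. The letters GAANNTTC and TTCNNGAA were searched on both strands, where each reads the same, as was a triple, GAANNTTC followed by NNGAA, which contains both pairs. At least 1 pair was found for 5 of the 6 heat shock genes with a window, all but Dnajb1, against 17.0% of 27025 genes. Counted by window, 6 of 10 held a pair, against 15.1% of 32851 windows. Heat shock genes are known for such elements, so these shares follow in part from how the set was chosen. The near-identical Hspa1a and Hspa1b windows are counted separately, as are the overlapping windows of Hsph1. The triple was found for Hsph1 alone of the 6, just after its start, against 0.662% of genes. The letters TATAAA were found in 0 of the 6, against 15.7% of genes. A match of letters is a description and does not show that a factor binds there.

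**Figure D2:**
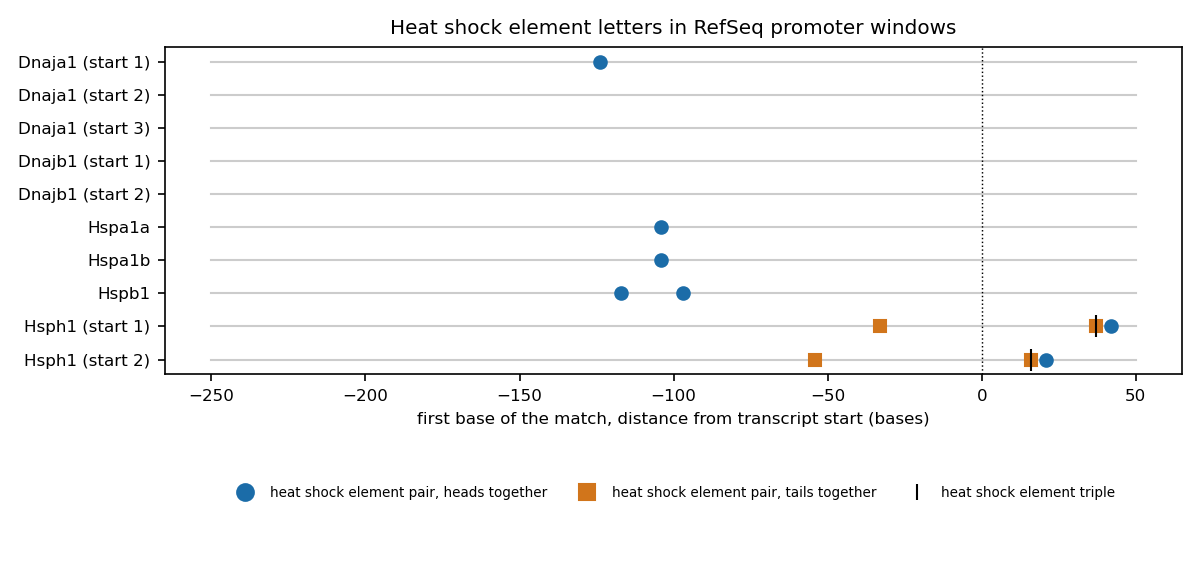
First base of each heat shock element match, in bases from the transcript start, in the 10 RefSeq windows of 6 heat shock genes (1 row per annotated start). Circles are GAANNTTC, squares TTCNNGAA and bars the triple. Hspa1a, Hspa1b, Hspb1 and Dnaja1 hold theirs between 97 and 124 bases upstream, while Hsph1 holds some beyond its start.

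Hspa1a, read by 1 probe set (1452388_at), was at 82.0 in germ-free ileum, 81.3 in wild type ileum, 325 in germ-free colon and 415 in wild type colon. Both ileum arrays were low, not far above the floor, and both colon arrays high. Hspa1a was 3.96-fold lower in ileum than in colon in germ-free mice (a log2 difference of -1.99) and 5.10-fold lower in wild type mice (-2.35). Germ-free and wild type differed by 0.01 in ileum and by -0.35 in colon. The colon value was -0.10 as deposited.

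Hspa1b was read by 3 probe sets, all above the floor on all arrays. The brightest (1452318_a_at) read 1309 in germ-free ileum, 1331 in wild type ileum, 3401 in germ-free colon and 2769 in wild type colon. The second read 402, 514, 1141 and 879.8 in the same order, and the third 246, 372, 791 and 648. On all 3 both ileum arrays lay below both colon arrays. In germ-free mice Hspa1b was 2.60-fold lower in ileum than in colon on the brightest probe set, with log2 differences of -1.38, -1.50 and -1.68 on the 3. In wild type mice it was 2.08-fold lower on the brightest, with -1.06, -0.78 and -0.80.

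The germ-free difference of Hspa1b depended on the probe set in ileum. It was -0.02 on the brightest, -0.35 on the second and -0.60 on the third, the last being 1.51-fold lower on the germ-free array. In colon all 3 were higher on the germ-free array, by 0.30, 0.37 and 0.29, close to the SD between probe sets, and the brightest was at 0.01 with median scaling. The single Hspa1a probe set had the opposite sign there, so these near-identical genes gave no common germ-free difference in colon.

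Hspa8 encodes the constitutive Hsc70, which folds new proteins and strips clathrin coats. Its brightest probe set (1455789_x_at) read 8938 in germ-free ileum, 9128 in wild type ileum, 8733 in germ-free colon and 8910.0 in wild type colon, all within 1.05-fold. The next 2 read 2998, 4599, 3127 and 3587, and 2479, 3512, 2375 and 2644, in the same order. Wild type ileum was the highest array on all 3. The dimmest read 222, 206, 197 and 192. In ileum the germ-free array was therefore level on the brightest probe set (a log2 difference of -0.03), lower on the next 2 (-0.62 and -0.50) and slightly higher on the dimmest (0.11). The probe set at -0.62 was 1.53-fold lower. Under median scaling and as deposited the middle pair stayed lower, between -0.56 and -0.67. In colon the 4 probe sets lay between -0.20 and 0.03, but the brightest was at -0.38 with median scaling.

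Hsph1 encodes Hsp110, which frees ADP from Hsp70 so that its cycle can go on. Its brightest probe set read 857 in germ-free ileum, 1161 in wild type ileum, 770.1 in germ-free colon and 811 in wild type colon. Wild type ileum was again the high array. The germ-free array was 1.35-fold lower in ileum (a log2 difference of -0.44), and its difference in colon was -0.08, which was 0.08 as deposited. The dimmer probe set read 43.4, 83.1, 66.6 and 80.6, with the germ-free ileum array below the floor, so that it was at least 1.33-fold lower than wild type ileum.

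Hsp90aa1 encodes the stress-inducible form of Hsp90, which matures kinases, steroid receptors and other client proteins. Its brightest probe set (1438902_a_at) read 3149 in germ-free ileum, 3526 in wild type ileum, 2718 in germ-free colon and 3010.2 in wild type colon. Both wild type arrays were above the germ-free array of the same region on it, by log2 differences of -0.16 in ileum and -0.15 in colon (germ-free minus wild type). The second brightest turned the sign in both regions, at 0.11 and 0.24, though the colon value was -0.01 with median scaling. The third, at 1053, 1246, 684 and 957, had -0.24 and -0.48. A dim one, at 143, 86.7, 83.9 and 76.8, had 0.73 in ileum and 0.13 in colon, and the last was below the floor on all arrays. The probe sets of Hsp90aa1 thus gave no common direction with the germ-free state. By region, all 4 were higher in ileum than in colon, by 0.21 to 0.77 in germ-free and 0.17 to 0.38 in wild type mice.

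The J-domain proteins hand clients to Hsp70 and start its ATP use. Dnajb1, the inducible Hsp40, read 1616 in germ-free ileum, 1476 in wild type ileum, 2123 in germ-free colon and 2123 in wild type colon on its brightest probe set. It was 1.31-fold lower in ileum than in colon in germ-free mice and 1.44-fold lower in wild type mice. The dimmer probe set, at 216, 251, 236 and 259, differed by -0.13 between the germ-free and -0.05 between the wild type regions. On the brightest probe set germ-free minus wild type was 0.13 in ileum and 0.00 in colon, where median scaling gave -0.24.

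Dnaja1, a farnesylated Hsp40 that works with Hsc70, read 4085 in germ-free ileum, 4163 in wild type ileum, 2918 in germ-free colon and 2714 in wild type colon. The second probe set read 1865, 1620.4, 1340.2 and 1118, and the third 1405, 1465, 852 and 723. On all 3 both ileum arrays were above both colon arrays. Dnaja1 was higher in ileum by log2 differences of 0.49, 0.48 and 0.72 in germ-free mice and 0.62, 0.54 and 1.02 in wild type mice. Germ-free minus wild type lay between -0.06 and 0.20 in ileum and between 0.10 and 0.26 in colon, and the brightest probe set was at -0.17 in colon with median scaling.

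**Figure D3:**
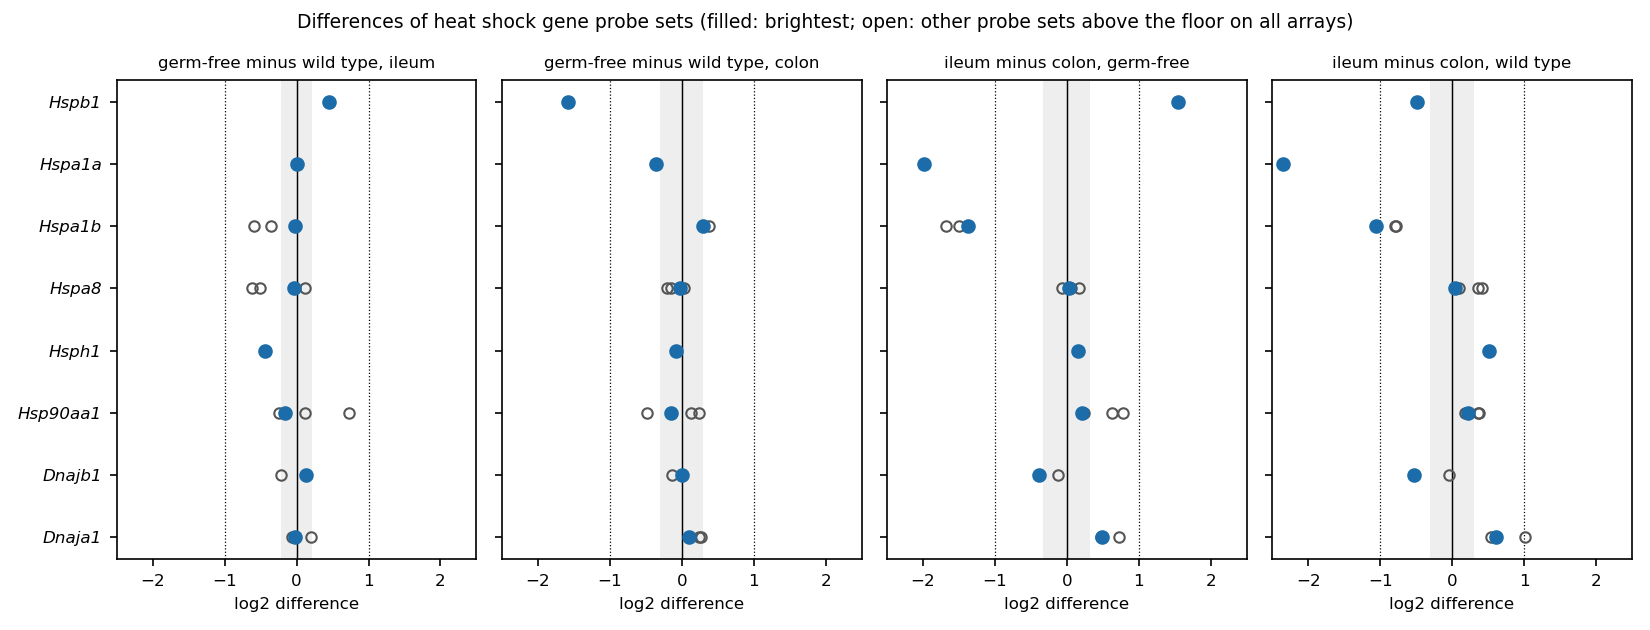
Log2 difference of each heat shock gene in the 4 comparisons (filled points, brightest probe set, and open points, other probe sets above the floor on all arrays). The shaded band is the SD between probe sets on either side of 0 (0.20 to 0.31) and dotted lines mark 2-fold. Hspb1 stands at -1.58 in the colon germ-free panel, and the Hspa1a and Hspa1b points lie left of 0 in both regional panels.

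Counted by brightest probe set, 0 of the 8 heat shock genes were at least 1.5-fold higher or lower on the germ-free array in ileum, where 2.4% of 11750 measured genes were higher and 3.17% lower by that much. In colon 1 of 8 was at least 1.5-fold lower and 0 higher, against 10.8% and 6.19% of 11746 genes. That 1, Hspb1, was also past 2-fold, as were 3.23% of genes in that direction and 1.29% in the other. In ileum 0.23% of genes were past 2-fold higher and 0.698% past 2-fold lower. These shares depend on the scaling. Of all genes past 1.5-fold in colon 36.4% were the higher ones, but 58.9% as deposited and 21.2% with median scaling. In ileum the share was 43.1%, but 30.3% as deposited and 36.9% with median scaling. The median difference over the 8 was -0.03 in ileum and -0.05 in colon, against 0.03 and -0.01 over all measured genes. The median of all measured genes in colon moved to 0.09 as deposited and -0.16 with median scaling, and that of the 8 to -0.04 and -0.30. The median of the colon minus the ileum difference was 0.01 over the 8, with 5 positive and 3 negative, against -0.02 over 11065 genes.

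Between regions 2 of the 8, Hspa1a and Hspa1b, were at least 2-fold lower in ileum in germ-free mice, where 5.88% of 11986 genes were, and the same 2 in wild type mice, where 5.93% of 12000 were. Since a probe set of either gene may read both, these 2 may not be separate signals. In wild type mice Hspa1b passed 2-fold on its brightest probe set only (-1.06), with -0.78 and -0.80 on its others. At least 1.5-fold higher in ileum were 1 of 8 in germ-free mice (Hspb1, against 17.2% of genes) and 1 of 8 in wild type mice (Dnaja1, against 13.6%). Hspb1 was also past 2-fold in germ-free mice, where 7.37% of genes were, against 6.04% in wild type mice. At least 1.5-fold lower were the same 2 members in each, against 13.4% of genes in germ-free and 13.8% in wild type mice. Of all genes past 1.5-fold between the germ-free arrays 56.2% were higher in ileum, but 36.6% as deposited and 63.9% with median scaling. The median of all genes there moved to -0.11 and 0.15. The median over the 8 was 0.09 in germ-free and -0.22 in wild type mice, against 0.04 and -0.01 over all genes. The regional and germ-free comparisons share arrays, so the low Hspb1 reading of germ-free colon enters both.

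Other genes of the pathway were taken as lists. The other heat shock factors with a probe set, Hsf2, Hsf4 and Hsf5, were below the floor on all arrays, as were the small heat shock protein genes Cryab, Cryaa, Hspb2, Hspb3, Hspb7 and Hspb9. Over 92 other chaperone and heat-inducible genes, 0 of 74 measured were at least 1.5-fold higher and 1 lower on the germ-free array in ileum, against 2.4% higher and 3.17% lower over all genes. In colon 1 of 73 was higher and 7 were lower, with a list median of -0.13, against 6.19% higher and 10.8% lower over all genes. By region 5 of 73 were higher and 5 lower in germ-free ileum, against 17.2% and 13.4% over all genes. In wild type ileum 5 of 75 were higher and 6 lower, against 13.6% and 13.8%.

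Among the Hsp70 partners, Bag6, a quality control factor, was 1.92-fold lower on the germ-free array in colon and 1.28-fold lower in ileum. Stip1, which links Hsp70 to Hsp90, was 1.47-fold lower in colon and differed by 0.12 in ileum, and the ubiquitin ligase gene Stub1 differed by 0.29 in ileum. Of 13 J-domain genes measured in colon 3 were at least 1.5-fold lower, against 10.8% of all genes. Dnajb5 was 2.43-fold lower on the germ-free array, Dnaja4 1.68-fold and Dnajc21 1.54-fold. In ileum Dnajc21 (-0.49) and Dnajc7 (-0.25) differed most. Among other Hsp70 relatives Hspa14 differed by 0.26 in ileum and 0.29 in colon and Hspa4l by 0.10 in colon, and Hspa12a was at least 1.55-fold lower in germ-free ileum. Dnaja4 was also at least 2.07-fold lower in wild type ileum than in wild type colon.

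Among the Hsp90 co-chaperones, Sugt1 was 1.85-fold lower on the germ-free colon array and Fkbp5, a glucocorticoid-induced immunophilin, was higher by 0.81 log2. Fkbp4 was 1.43-fold and Sugt1 1.25-fold lower in germ-free ileum. By region Fkbp5 read 367 in germ-free ileum, 347 in wild type ileum, 1869 in germ-free colon and 1070 in wild type colon, low on both ileum arrays like Hspa1a and Hspa1b. The other list members past 2-fold by region were Zfand2a, an arsenite- and heat-inducible gene, at 2.84-fold lower in wild type ileum, and the stress factor Atf3, 2.03-fold lower in germ-free and 2.57-fold lower in wild type ileum. Zfand2a was also 1.94-fold lower on the germ-free colon array, and the autophagy receptor gene Sqstm1 1.42-fold. In ileum the collagen chaperone gene Serpinh1 differed by -0.51 and Ier5 by -0.40.

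In the chaperonin and prefoldin list Pfdn6 differed by 0.48 in ileum and -0.60 in colon, Cct8 by -0.43 in ileum and Cct5 by -0.26 in colon. Of the 9 mitochondrial chaperone genes 0 were past 1.5-fold with the germ-free state, against 2.4% higher and 3.17% lower over all genes in ileum and 6.19% and 10.8% in colon. Grpel2 (-0.40) and Lonp1 (-0.38) differed most in colon, and Hspd1 (-0.24) and Hspa9 (-0.23) in ileum. Of the other small heat shock protein genes, Hspb6 was at least 1.41-fold lower in germ-free ileum and 1.23-fold lower in germ-free colon, and Hspb8 (-0.03 in ileum) stayed next to the floor.

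Neighbouring stress systems had their own values. Of 14 endoplasmic reticulum chaperone genes 1 was at least 1.5-fold lower in germ-free ileum (Pdia6, -0.64, followed by Pdia3, -0.52) and 2 in germ-free colon (Herpud1, -0.66, and Pdia4, -0.62), against 3.17% and 10.8% of all genes. Pdia6 was higher in ileum than in colon by 1.36 log2 in germ-free and 1.78 in wild type mice, and Hspa5 by 1.03 in germ-free mice. Of the immediate early genes 15 of 17 measured had a lower value in ileum than in colon in germ-free mice and 15 of 15 in wild type mice, against 5603 of 11986 and 6095 of 12000 of all genes. Among them Jun differed by -1.36 in germ-free and -1.42 in wild type mice, Dusp1 by -1.31 and -1.51, and Egr1 by -1.54 in wild type mice. With the germ-free state Ier2 (-0.51) and Egr1 (0.50) differed most in ileum, and Egr1 (-0.86) and Junb (-0.55) in colon.

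**Figure D4:**
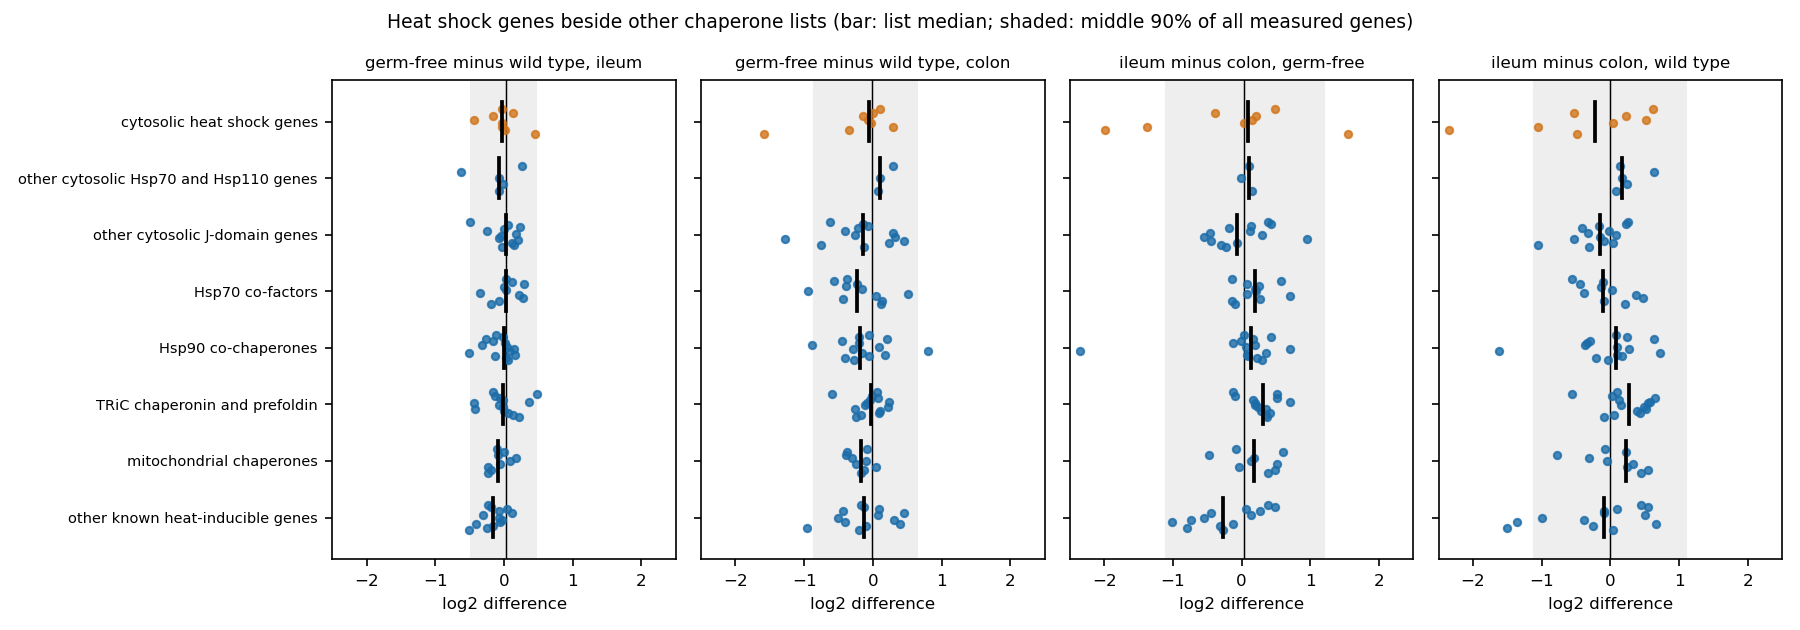
Log2 differences in the 4 comparisons of the 8 heat shock genes (top row) and 7 lists of other chaperone and heat-inducible genes, 1 point per gene, with a bar at each list median. The shaded band holds the middle 90% of all measured genes and the thin line marks their median. Hspb1 lies left of the band in the colon germ-free panel (-1.58), and Hspa1a and Hspa1b lie left of it in germ-free mice (-1.99 and -1.38).

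The 2 members with the widest range over the arrays were Hspa1a and Hspb1. The genes most like each were found by the Euclidean distance between centred log2 values over the 4 arrays, among genes with a mean intensity above 259. Closest to Hspa1a were Abcc3 (a distance of 0.20), Sult1c2 (0.23), Mettl7a1 (0.25), Nr1d2 (0.29) and Pla2g10 (0.29). Abcc3, an organic anion exporter, read 989 in germ-free ileum, 1104 in wild type ileum, 4560.0 in germ-free colon and 6008 in wild type colon. Closest to Hspb1 were Grip2 (0.16), Mfge8 (0.20), Il18 (0.21), Pskh1 (0.22) and E2f5 (0.24), out of 6752 genes. Il18, an epithelial cytokine gene, read 914, 588, 276 and 760.3 in the same order, lowest in germ-free colon like Hspb1. With 4 arrays, likeness of pattern is a description.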

How the data were processed

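The authors deposited linear intensities per probe set, 1 array per group. Per the series' design text they came from dCHIP2004, whose background, model and normalization options are not stated in what was used here. Per the labels' protocols, 40 ng of RNA went through 2 rounds of amplification. The upper 50% of intensities had medians up to 0.28 log2 apart between arrays, so the 45037 non-control probe sets were quantile-normalized (Python 3.11.15, NumPy 2.4.6, pandas 2.3.3). Genes were named by probe sets with a single symbol (34945) in the platform annotation, updated through RefSeq. Intensities under 62.4 were raised to that floor, genes with 1 compared array above it were measured, and each gene was read from its brightest probe set by mean log2. No p-value was computed. Members and lists were chosen with earlier results of these data known. Other genes named were, per list, the 2 with the largest difference in each germ-free comparison, any past 2-fold, and markers or examples of a count. Promoters are RefSeq's (GRCm38.p6), found for 6 of 10 members. The method was checked on simulated arrays, with known changes put only on bright genes of the germ-free colon array. Dim readings and shifts in RNA quality were not part of that check.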

Additional observations from a re-analysis of the deposited data

Results flagged for a closer look

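On its brightest probe set Hspb1 differed in opposite directions with the germ-free state in the 2 regions. It was lower on the germ-free colon array by a log2 difference of -1.58 and higher on the germ-free ileum array by 0.45, so that the colon difference minus the ileum difference was -2.03. That regional difference was not tested, since each group is 1 array, and it rests on 1 probe set. The ileum difference was 1.37-fold, which is under 1.5-fold. Averaged with its dim probe set, Hspb1 differed by -0.61 in colon and -0.04 in ileum.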

How the results depend on the processing

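No paired analysis was possible because each group is 1 array. The 8 alternatives were the deposited scale, median scaling, 3 other floors (the 25th percentile, the 75th percentile, none), averaging a gene's probe sets, the second brightest probe set, and leaving out probe sets that can match several transcripts. They gave 239 values for single members, of which 214 moved by less than the SD between probe sets and 25 by more, and 0 differences past 1.5-fold changed sign. Many of the 214 could not move. The brightest probe set of every member was above the floor on all arrays, so a lower floor or none left its values unchanged. Averaging could not move Hspa1a, which has 1 probe set. The count of 214 is therefore not a measure of how stable the values are. With the second brightest probe set, which 6 members have, the members past 1.5-fold between germ-free and wild type numbered 1 in ileum, against 0, and 0 in colon, against 1, since the second Hspb1 probe set is below the floor. The regional counts were 1 in each state, against 3. Hspa1a has no second probe set, Hspb1, counted in germ-free mice, has no usable one, and Dnaja1 differed by 0.54 in wild type mice, against 0.62. The median was -0.28 in ileum for germ-free minus wild type, against -0.03, and 0.20 for ileum minus colon in wild type mice, against -0.22. Averaging a gene's probe sets gave 1 member past 1.5-fold in ileum, against 0. With the several-transcript probe sets left out, 1 of 6 was past 1.5-fold in ileum and 0 of 6 in colon, where Hspb1 then had no usable probe set. A floor at the 75th percentile gave Hspb1 -0.89 in colon, and Hspa1a -0.33 between regions in germ-free and -0.68 in wild type mice, because these members' low readings lie under it. Genes past 2-fold in colon numbered 152 higher and 379 lower, but 296 and 275 as deposited, and the cause was not tested. The low Hspa1a readings in ileum limit its fold, since they lie close to the floor.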
